A study of Mus musculus with 48 samples.

Results

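RNA sequencing of mouse striatum was examined for 9 genes of γ-aminobutyric acid (GABA) signalling: the GABA-B receptor subunits Gabbr1 and Gabbr2, the plasma membrane GABA carriers Slc6a11 (GAT3) and Slc6a13 (GAT2), the glutamate decarboxylases Gad1 and Gad2, the vesicular GABA carrier Slc32a1, and the catabolic enzymes Abat and Aldh5a1. They were selected by gene symbol, and all 9 were found among the 24060 rows of the gene count table. The libraries were made with RiboTag, in which an adeno-associated virus gives 1 cell type a tagged ribosomal protein, Rpl22-HA, so that the RNA on its ribosomes can be precipitated. The virus acted in astrocytes of the striatum for 3 weeks before extraction. Each replicate gave 2 libraries, IP (what came down with the tagged ribosomes) and input (the whole cleared lysate). There were 48 libraries in 12 groups of 4 replicates, from 24 adult mice by the series text, on a C57 background.

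In the first experiment, mice given MPTP, a toxin of dopamine neurons (20 mg/kg, 4 doses), were compared with mice given vehicle. The route of the toxin is uncertain, since the labels give a dose per body weight and yet name the striatum as the site of injection. In the second, SAPAP3 knockout mice, a model of obsessive-compulsive disorder that lacks a postsynaptic scaffold protein, were compared with wild-type (WT) littermates. In the third, R6/2 mice, a transgenic model of Huntington's disease, carried the Gi-coupled designer receptor hM4Di in striatal astrocytes and were compared with R6/2 mice carrying a control cargo. The series text says that the Gi pathway was activated there, but the labels name no agonist of hM4Di and no time, and both groups carry the R6/2 transgene. The promoters that drive the tag, hM4Di and the control cargo are not given for these groups in the sources used here. The titles tie the IP and input libraries of a replicate to 1 mouse, except in MPTP replicate 2, where they name different animals, and the title of WT replicate 3 may join 2 mice.

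GABA-B receptors are obligate heteromers: the GABBR1 subunit binds GABA and the GABBR2 subunit couples to Gi proteins, and both are found in neurons and in astrocytes. Most neurons of the striatum are GABAergic, make GABA from glutamate with GAD1 and GAD2, and load it into vesicles with the SLC32A1 carrier. Astrocytes take GABA up, among others through SLC6A11, and break it down to succinate in mitochondria with ABAT (GABA transaminase) and ALDH5A1 (succinic semialdehyde dehydrogenase), while SLC6A13 is known in the brain chiefly from the meninges and blood vessels.

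The libraries held 34.3 to 61.5 M counted reads (mega, 1e6) in the IP fraction and 21.9 to 38.98 M in the input fraction. All 10 astrocyte markers were over 2-fold higher in IP than in input in each experiment, beside 11.3% to 12.5% of all genes. All 9 markers of medium spiny neurons, the GABAergic projection neurons of the striatum, were lower, beside 40% to 42.9% of all genes. The medium spiny neuron markers were not absent from IP, where their summed level was 504 to 543 normalized FPKM in hM4Di mice and 625.9 to 982.6 normalized FPKM in cargo mice. The labels held at their targets. Dlgap3, which encodes SAPAP3, averaged 74.2 ± 18.4 normalized CPM (counts scaled to library size) in knockout IP and 195 ± 26.5 CPM in WT IP (SD, n = 4 each), with ranges of 56.6 to 97.8 and 173 to 229. Chrm4, the mouse counterpart of the gene from which hM4Di was derived, averaged 763 ± 140 CPM in hM4Di IP and 48.8 ± 11.9 CPM in cargo IP. WT replicate 1 stood apart: the summed level of 3 cortical excitatory neuron markers was 22.8 normalized FPKM in input, against 169.5 to 213 normalized FPKM in the other WT inputs.

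Promoters are shown for the genes on which the comparisons below turn: the subunits of 1 receptor, of which Gabbr1 fell with hM4Di, and a pair of related carriers, which stood at opposite ends of the comparison of IP with input. Each is the RefSeq entry on GRCm38.p6, 250 bases before to 50 bases after the annotated start, written 5′ to 3′ on the strand of the gene. Capitals mark GGGCGG, the GC box, or its reverse complement CCGCCC. Matches of each motif named here were counted on both strands, with overlaps allowed, and 35.7% of 32851 RefSeq mouse promoters of this length hold at least 1. The Gabbr1 promoter (chr17:37045716-37046015, plus strand, 67.3% G and C) holds 3 matches, and that of Gabbr2 (chr4:46991665-46991964, minus strand, 80.3% G and C) holds 2.
Gabbr1 promoter: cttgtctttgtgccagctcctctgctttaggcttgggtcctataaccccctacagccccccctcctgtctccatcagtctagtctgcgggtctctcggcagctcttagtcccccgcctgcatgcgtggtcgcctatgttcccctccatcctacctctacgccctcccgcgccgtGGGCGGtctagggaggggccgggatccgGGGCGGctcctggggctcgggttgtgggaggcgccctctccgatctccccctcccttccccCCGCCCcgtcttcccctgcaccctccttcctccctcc
Gabbr2 promoter: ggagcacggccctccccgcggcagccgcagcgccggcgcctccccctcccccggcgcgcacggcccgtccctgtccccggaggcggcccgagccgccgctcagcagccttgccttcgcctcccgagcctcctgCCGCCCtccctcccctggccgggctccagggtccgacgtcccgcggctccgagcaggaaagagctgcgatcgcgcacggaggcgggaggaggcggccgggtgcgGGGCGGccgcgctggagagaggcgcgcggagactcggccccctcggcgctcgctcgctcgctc
The Slc6a11 promoter (chr6:114130991-114131290, plus strand, 72.3% G and C) holds 4 matches, and the first of the 3 Slc6a13 entries (chr6:121300038-121300337, plus strand, 59.0% G and C) holds 2. The median over all these promoters was 52.7% G and C.
Slc6a11 promoter: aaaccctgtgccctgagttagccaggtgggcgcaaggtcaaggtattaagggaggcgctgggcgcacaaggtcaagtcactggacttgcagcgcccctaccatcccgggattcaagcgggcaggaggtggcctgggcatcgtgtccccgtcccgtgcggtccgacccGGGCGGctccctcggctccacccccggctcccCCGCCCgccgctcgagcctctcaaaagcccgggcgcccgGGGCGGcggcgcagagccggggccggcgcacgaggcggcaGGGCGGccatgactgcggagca
Slc6a13 promoter: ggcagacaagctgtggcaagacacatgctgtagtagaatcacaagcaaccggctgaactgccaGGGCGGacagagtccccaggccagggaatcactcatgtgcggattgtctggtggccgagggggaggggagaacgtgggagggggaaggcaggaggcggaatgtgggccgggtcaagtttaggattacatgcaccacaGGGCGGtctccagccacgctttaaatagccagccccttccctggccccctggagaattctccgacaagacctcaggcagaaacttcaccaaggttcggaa
RefSeq promoter entries were matched for 8 of the 9 genes, 10 entries in all, of which 5 hold the GC box. The letters TATAAA were in 1 of the 10 entries and in 13.6% of all promoters, and those of CCAAT in 4 of 10 and 37.4%. The core of the cAMP response element (TGACG) was in 2 of 10 and 20.8%. These matches describe letters in a window and were not tested as sites.

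Levels are given as normalized FPKM: reads per kilobase and per M reads, with the library sizes scaled by TMM (trimmed mean of M values) over the 48 libraries. In IP, the order of mean levels over 24 libraries was Abat (301 ± 29.4, SD, n = 24), Gabbr1 (248.7 ± 44.98), Gad1 (233 ± 29.3), Slc6a11 (104 ± 14.4), Gad2 (91.7 ± 10.9), Slc32a1 (71.1 ± 10.9), Aldh5a1 (40.7 ± 6.73), Gabbr2 (37.9 ± 7.35) and Slc6a13 (0.0884 ± 0.0515 normalized FPKM). Neighbours in this order overlapped in range, except Slc6a11 with Gad1 above it and Slc6a13 with Gabbr2 above it. Abat ranked 83rd and Gabbr1 120th by mean level among 16607 genes in IP. In input the order was Gabbr1 (212 ± 21.5), Gad1 (170 ± 13.1), Abat (131 ± 15.9), Gad2 (79.9 ± 6.14), Slc32a1 (63.2 ± 9.84), Gabbr2 (35.0 ± 19.4), Slc6a11 (20.4 ± 4.09), Aldh5a1 (20.1 ± 3.11) and Slc6a13 (1.33 ± 0.215 normalized FPKM). Neighbours in this order overlapped as well, except Gad2 with Abat above it and Slc6a13 with Aldh5a1 above it. In GENCODE M21 an antisense or opposite-strand gene overlaps Gad1 (Gad1os), Slc32a1 (Gm14205), Aldh5a1 (4932702P03Rik and 9330162012Rik), Slc6a11 (Gm8132, a pseudogene) and Slc6a13 (Gm24855, a microRNA gene). Whether strand was used in counting is not given in the sources used here, so the reads of these pairs cannot be told apart.

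**Figure D1:**
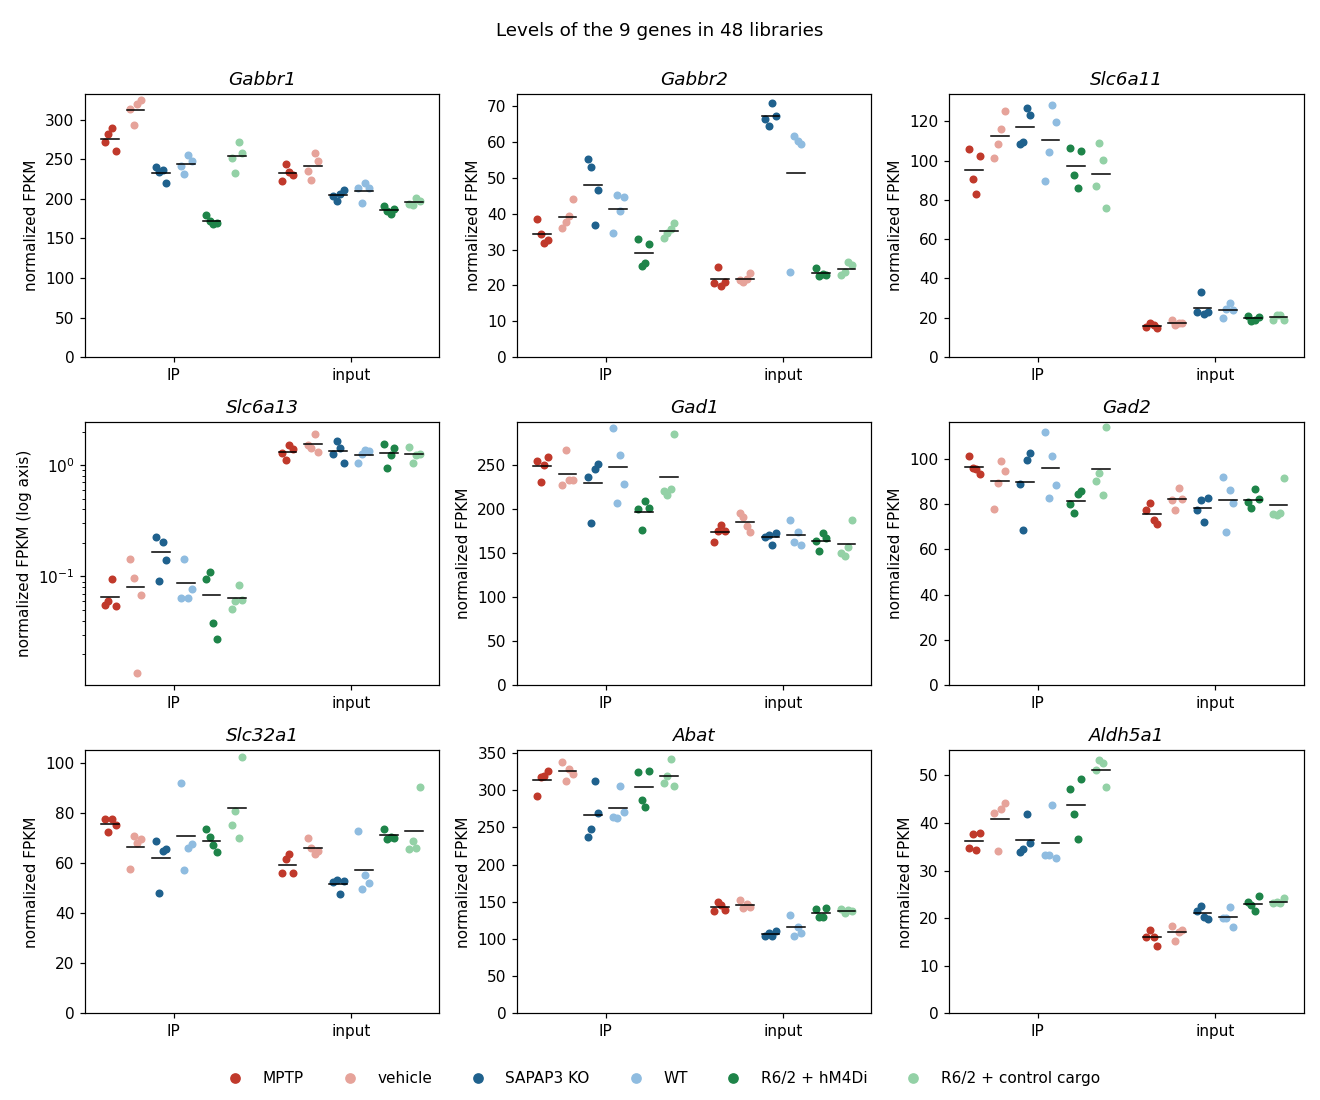
Normalized FPKM of each gene in the 24 IP and 24 input libraries, by group; points are libraries, lines are means of 4, and the Slc6a13 axis is logarithmic. Gabbr1 in hM4Di IP lies at 169 to 180 and in cargo IP at 233 to 272, and Gabbr2 in input is high in 7 of the 8 mice of the SAPAP3 experiment.

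The gene of the GABA-binding subunit, Gabbr1 (GRCm38 chr17:37045966-37075067, plus strand), was the only one of the 9 that passed the test with any of the perturbations, and it fell in astrocyte ribosome-bound RNA of R6/2 mice with hM4Di. Its level was 180, 172, 169 and 169 normalized FPKM in hM4Di IP, against 252, 233, 272 and 259 normalized FPKM in cargo IP. The groups did not overlap, and the highest hM4Di library lay well under the lowest cargo library. The log2 fold change was -0.54 ± 0.0495 (SE), a fold of 0.687, with an adjusted p of 0.0015 (edgeR quasi-likelihood F test, Benjamini-Hochberg over 15159 genes, as for every test of this kind below).

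In the input of the same mice the difference in Gabbr1 was small. The level was 190, 184, 181 and 187 normalized FPKM in hM4Di input and 194, 192, 201 and 198 normalized FPKM in cargo input. All hM4Di libraries lay under all cargo libraries, yet the change did not pass (log2 -0.07 ± 0.0301, adjusted p = 0.625). The interaction, which is the effect in IP minus that in input, was -0.48 ± 0.0576 on the log2 scale (adjusted p = 0.00287) and -0.48 ± 0.0461 (adjusted p = 1.2e-05) with the animal as a block. Within a mouse, Gabbr1 in IP was 0.906 to 0.943 times its own input in hM4Di mice and 1.21 to 1.36 times in cargo mice. By these normalized levels, hM4Di formed the only group in which Gabbr1 was lower in IP than in input. This held in 4 of 4 mice, against 0 of 20 replicates in the other 5 groups. The direction depended on the scaling of the fractions. In the FPKM as deposited, without TMM, Gabbr1 was also lower in IP in every MPTP replicate, such as 243.1 against 243.8 in replicate 1 and 234.2 against 248.4 in replicate 4. It was lower there too in knockout replicates 2, 3 and 4 and in WT replicates 1 and 4.

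Among the 8 genes tested in the IP comparison of hM4Di with cargo, 1 was lower and 0 were higher, beside 5.63% of all genes tested that were lower and 9.06% that were higher (14.7% in either direction). The median log2 fold change of the 8 was -0.22, against 0.01 over all genes, and 7 of the 8 values lay below 0. Slc6a13 did not reach the filter on low counts there. The IP count over all genes was 2227, and it was 892 without cargo replicate 1, 1084 without hM4Di replicate 2 and 1409 without cargo replicate 4. The interaction called 1 of 9, beside 3.1% of all genes. That share stood for 492 genes, and the count was 91 without cargo replicate 1, 208 without cargo replicate 3, and 323, 202, 280 and 128 without hM4Di replicates 1, 2, 3 and 4. With the animal as a block it called 6 of 9, beside 17.4% of all genes: Gad1 (-0.30, adjusted p = 0.000284), Gad2 (-0.26, adjusted p = 0.0016), Slc32a1 (-0.22, adjusted p = 0.00482), Gabbr2 (-0.21, adjusted p = 0.03) and Aldh5a1 (-0.20, adjusted p = 0.0219) joined Gabbr1.

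Gabbr2 (chr4:46662305-46991873, minus strand), whose product couples the receptor to Gi proteins, was at 32.9, 25.5, 26.2 and 31.6 normalized FPKM in hM4Di IP and at 33.2, 34.7, 35.7 and 37.5 normalized FPKM in cargo IP. The groups did not overlap, although hM4Di replicate 1 and cargo replicate 1 almost met. The log2 fold change of Gabbr2 was -0.26 ± 0.0834 and missed the threshold (adjusted p = 0.0648). It passed with DESeq2 (-0.27, adjusted p = 0.0194), with all 16 libraries of the experiment in 1 fit (-0.27, adjusted p = 0.0149) and without hM4Di replicate 1 (-0.32, adjusted p = 0.0374). The ratio of Gabbr1 to Gabbr2 levels in IP averaged 5.99 ± 0.691 in hM4Di mice and 7.21 ± 0.464 in cargo mice (SD, n = 4 each), with ranges of 5.35 to 6.72 and 6.72 to 7.61.

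Markers of several cell types moved in the same IP comparison, in which 5.63% of all genes were lower and 9.06% higher. Of the medium spiny neuron markers 7 of 9 were lower in hM4Di IP (median log2 -0.51), and their summed level was 504 to 543 normalized FPKM in hM4Di IP against 625.9 to 982.6 in cargo IP. All 6 oligodendrocyte markers were higher (median 0.80), with sums of 1270 to 1806 in hM4Di IP against 725 to 1017 in cargo IP. Of the astrocyte markers 2 of 10 were lower, with sums of 3239 to 3523 in hM4Di IP against 3867 to 4426 in cargo IP, and of the pan-neuronal markers 2 of 6 were lower. Rpl22, which the tag virus carries, was at 265 ± 26.3 CPM in hM4Di IP and 529 ± 161 CPM in cargo IP (log2 -0.98, adjusted p = 0.0209). No marker of these 4 lists was at 0 in all libraries of a group, and the part of these shifts in the Gabbr1 result was not tested. In input the medium spiny neuron sums were 1010 to 1132 in hM4Di mice and 1036 to 1201 in cargo mice. The oligodendrocyte sums in input were 1027 to 1239 and 1015 to 1230. In bulk RNA, fewer cells of a type and less RNA per cell cannot be told apart. How much RNA of other cells came down with the tagged ribosomes in IP was not tested.

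**Figure D2:**
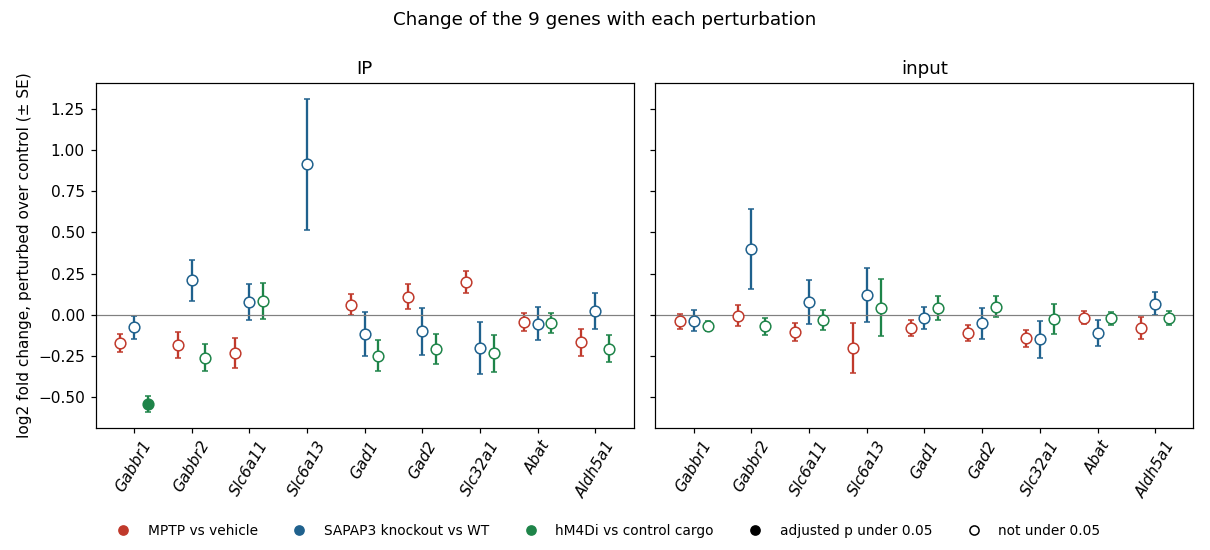
Log2 fold change ± SE of each gene in MPTP over vehicle, SAPAP3 knockout over WT and hM4Di over control cargo, in IP (left) and input (right); filled points have an adjusted p under 0.05, and Slc6a13 was not tested in 2 of the IP comparisons. The filled point is Gabbr1 in hM4Di IP, at -0.54.

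MPTP changed none of the 9 genes past the threshold in either fraction, beside 0% of all genes tested in IP and 0% in input. In IP, edgeR called 0 of 8 genes, and DESeq2 and limma-voom called 0. At an unadjusted p under 0.05 there were 4 of the 8, beside 11.2% of all genes. In input edgeR called 0 of 9, and the other tools called 0. At an unadjusted p under 0.05 there were 2 of the 9, beside 8.26% of all genes. The median of the genes was -0.10 in IP and -0.08 in input on the log2 scale, against 0.01 over all genes in each.

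Among the genes examined here, Gabbr1 again had the smallest p in MPTP IP (rank 611 of 15069 genes tested). It was at 272, 281, 290 and 261 normalized FPKM in MPTP IP and at 313, 294, 320 and 325 normalized FPKM in vehicle IP. The ranges did not overlap, and the gap between them was narrow (log2 -0.17 ± 0.0554, adjusted p = 0.288). Gabbr2 was at 31.8 to 38.5 normalized FPKM in MPTP IP and 35.9 to 44.1 in vehicle IP, overlapping ranges (log2 -0.18 ± 0.0789, adjusted p = 0.423). In input both subunits overlapped between MPTP and vehicle mice (log2 -0.04 ± 0.047 for Gabbr1 and 0.00 ± 0.066 for Gabbr2).

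In the SAPAP3 experiment, too, none of the 9 genes passed: edgeR called 0 of 9 in IP, beside 0.0263% of all genes, and 0 of 9 in input, beside 0.00641%. At an unadjusted p under 0.05 there was 1 gene in IP, beside 2.63% of all genes, and 0 in input, beside 5.57%. DESeq2 and limma-voom called 0 in each. The interaction called 0 of 9 in this experiment and in the MPTP experiment, beside 0% of all genes in each. At an unadjusted p under 0.05 there were 0 genes in the SAPAP3 experiment and 2 in the MPTP experiment, beside 1.26% and 7.98% of all genes. DESeq2 called 0 and 1 of the 9 in the same order.

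Of the receptor subunits, WT replicate 1 stood apart from the other mice of this experiment in Gabbr2 and not in Gabbr1. That mouse also had the highest Slc32a1, at 72.8 normalized FPKM in input (47.6 to 55.4 in the others) and 92.2 in IP (48.2 to 68.8). Its Gad1 was highest too, at 187.6 in input (159.2 to 174) and 291.6 in IP (183.8 to 262). Abat was highest there in input (132.9, against 104 to 116.8), and Slc6a11 lowest in input and IP (20.1 and 89.5). Gabbr2 in input was at 66.6, 64.4, 70.9 and 67.4 normalized FPKM in knockout mice and at 23.7, 61.6, 60.2 and 59.6 normalized FPKM in WT mice. WT replicate 1 stood far under the other 7 mice, at the level of the other experiments, where Gabbr2 in input was at 19.9 to 26.4. The log2 fold change was 0.40 ± 0.243 (adjusted p = 0.735), and 0.17 ± 0.0448 (adjusted p = 0.999) without WT replicate 1, and the knockout and WT values did not overlap with or without that mouse.

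The cortical excitatory neuron markers Slc17a7, Neurod6 and Tbr1 split the inputs in the same way. Their summed level was 255.9, 204.8, 234.6 and 233.7 normalized FPKM in knockout inputs and 22.8, 213.1, 169.5 and 188.8 in WT inputs, and 4.34 to 25.0 in the 16 inputs of the other experiments. In IP it was 35.55 to 109.2 in knockout mice, 4.945 in WT replicate 1, 40.13 to 74.65 in the other WT mice and 2.27 to 12.99 elsewhere. Gabbr2 in IP was at 55.3, 53.1, 37.0 and 46.6 normalized FPKM in knockout mice and at 34.7, 45.1, 40.9 and 44.7 in WT mice (log2 0.21 ± 0.126, adjusted p = 0.999), with the lowest value in WT replicate 1 and overlapping groups. WT replicate 1 also had a summed level of medium spiny neuron markers of 2983 in input, against 1533 to 1887 in the other mice of that experiment. The part of cortical neuron RNA in the Gabbr2 values was not tested. Gabbr1 showed no such split, at 204, 198, 206 and 211 normalized FPKM in knockout input and 214, 194, 220 and 213 in WT input.

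**Figure D3:**
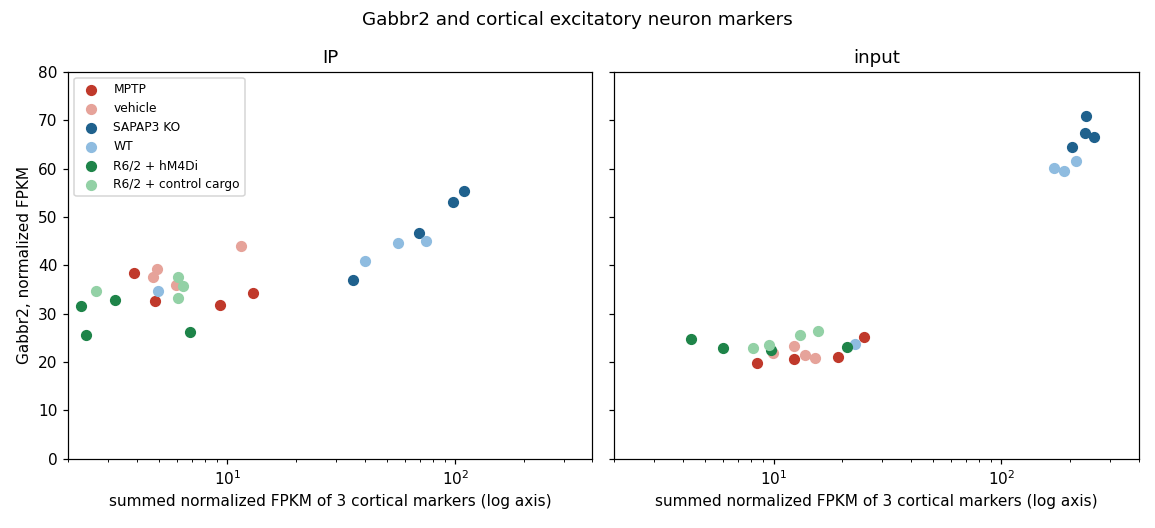
Gabbr2 in normalized FPKM against the summed normalized FPKM of 3 cortical markers (log axis) in IP (left) and input (right) libraries; points are libraries, coloured by group. In input, 7 libraries of the SAPAP3 experiment sit at 59.6 to 70.9 for Gabbr2 and WT replicate 1 sits with the other experiments at 23.7.

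In the comparison of IP with input, the carrier genes Slc6a11 and Slc6a13 lay at opposite ends, Slc6a11 higher in IP and Slc6a13 lower. The catabolic genes Abat and Aldh5a1 were higher in IP, by 1.75 to 2.43 times. The receptor and synthesis genes differed by less than 2-fold, and several of their calls depended on the setting. In the MPTP experiment 7 of 9 genes were higher in IP and 1 was lower, beside 40.7% and 42.9% of all genes. There 3 were over 2-fold higher and 1 over 2-fold lower, beside 12.5% and 14%. In the SAPAP3 experiment 7 were higher and 2 lower, beside 40.3% and 40%, and 2 and 1 passed 2-fold, beside 11.9% and 13%. In the R6/2 experiment 5 were higher and 1 lower, beside 39.3% and 41.1%, and 3 and 1 passed 2-fold, beside 11.3% and 12.3%.

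Slc6a11 (chr6:114131241-114249952, plus strand), which encodes the GABA carrier GAT3 of astrocytes, was 5.97-fold higher in IP than in input in the MPTP experiment, 4.61-fold with SAPAP3 mice and 4.75-fold with R6/2 mice (log2 2.58 ± 0.0582, 2.20 ± 0.0954 and 2.25 ± 0.0699). The adjusted p was at most 1.05e-12 in these 3 tests, and IP exceeded input in 24 of 24 replicates, by 3.32 to 7.33 times. With the perturbations it did not pass. It was at 106, 90.4, 82.9 and 102 normalized FPKM in MPTP IP and 101, 109, 116 and 125 in vehicle IP (log2 -0.23 ± 0.0904, adjusted p = 0.384), overlapping groups in which 2 of the MPTP libraries lay under all vehicle libraries. In hM4Di IP it was at 106, 92.4, 86.0 and 105 normalized FPKM and in cargo IP at 87.3, 109, 101 and 76.0 (log2 0.08 ± 0.11, adjusted p = 0.661). The difference has a 95% interval of -0.13 to 0.30, so that a shift as large as that of Gabbr1 lies outside it. In knockout IP it was at 109 to 127 normalized FPKM and in WT IP at 89.5 to 128 (adjusted p = 0.999). In knockout input, replicate 2 was at 33.0 normalized FPKM, against 21.9 to 23.0 in the other knockout inputs and 20.1 to 27.4 in WT inputs.

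Slc6a13 (chr6:121300227-121337733, plus strand), which encodes GAT2, was nearly absent from IP, with 1 to 18 reads a library and 192 reads in 24 libraries, against 57 to 154 reads a library and 2223 in all in input. Its fold, IP over input, was 0.0515 in the MPTP experiment, 0.0963 with SAPAP3 mice and 0.0533 with R6/2 mice (log2 -4.28 ± 0.208, -3.38 ± 0.204 and -4.23 ± 0.208, adjusted p at most 7.6e-11). IP was lower in 24 of 24 replicates. Of 10 endothelial, mural and meningeal markers, 9 were over 2-fold lower in IP in each experiment, among them Dcn (log2 -4.64, -4.08 and -5.10 in the same order) and Slc22a6 (-4.44, -4.03 and -5.40). Of all genes, 14%, 13% and 12.3% were over 2-fold lower. In knockout IP Slc6a13 had 18, 7, 16 and 11 reads and in WT IP 6, 12, 5 and 7 reads (log2 0.91 ± 0.4, adjusted p = 0.999), which at this depth does not separate the groups. In input it was at 0.936 to 1.90 normalized FPKM, with log2 changes of -0.20 ± 0.151 with MPTP, 0.12 ± 0.164 in knockouts and 0.04 ± 0.174 with hM4Di.

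**Figure D4:**
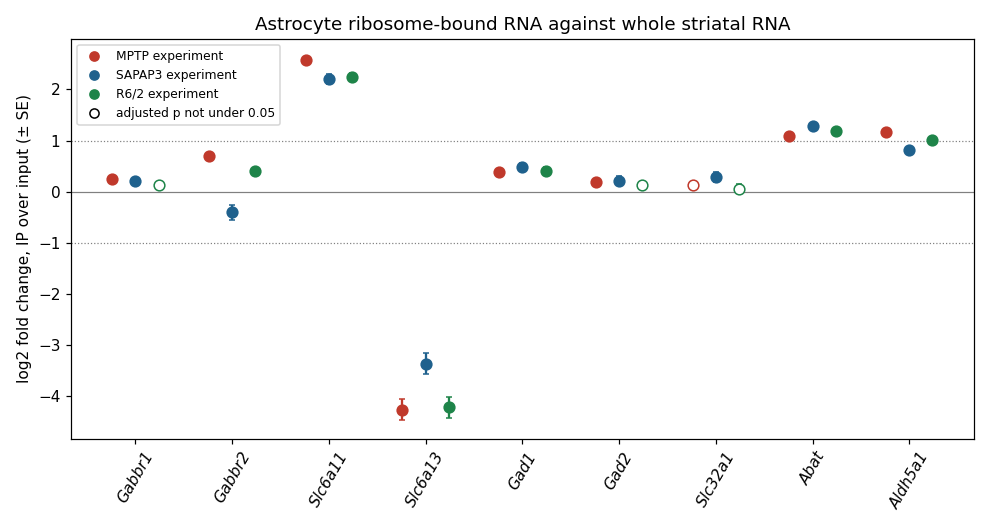
Log2 fold change ± SE of each gene, IP over input, in each of the 3 experiments; dotted lines mark 2-fold, and open points have an adjusted p that is not under 0.05. Slc6a11 lies at 2.20 to 2.58, Slc6a13 at -4.28 to -3.38, and Gabbr2 is above 0 in 2 experiments and below 0 in the SAPAP3 experiment.

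Abat (chr16:8513429-8621568, plus strand), whose product removes the amino group of GABA, was 2.13-fold, 2.43-fold and 2.27-fold higher in IP than in input in the MPTP, SAPAP3 and R6/2 experiments (log2 1.09 ± 0.0333, 1.28 ± 0.0643 and 1.18 ± 0.038), and higher in 24 of 24 replicates. It varied least of the 9 in IP, with a coefficient of variation of 9.79% over 24 libraries. No perturbation moved it past the threshold. In hM4Di IP it was at 325, 287, 278 and 326 normalized FPKM and in cargo IP at 310, 320, 342 and 306, overlapping groups with a log2 difference of -0.05 ± 0.0604 (adjusted p = 0.601).

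Aldh5a1 (chr13:24907579-24937661, minus strand), which encodes the next enzyme of the route, was 2.24-fold, 1.75-fold and 2.02-fold higher in IP in the same 3 experiments (log2 1.16 ± 0.0574, 0.81 ± 0.067 and 1.02 ± 0.0545), in 24 of 24 replicates. In the R6/2 experiment it fell short of 2-fold without cargo replicate 2 or 3 (log2 0.99 and 1.00) and with upper-quartile scaling (0.90), as Abat did with that scaling in the MPTP experiment (0.95). In hM4Di IP it was at 47.2, 41.8, 36.7 and 49.3 normalized FPKM and in cargo IP at 51.1, 53.3, 52.5 and 47.7. The groups overlapped through 1 library each, and the log2 change of -0.21 ± 0.083 did not pass (adjusted p = 0.123), though it did with all 16 libraries in 1 fit (-0.21, adjusted p = 0.0342).

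The genes of GABA synthesis and vesicular loading, which mark GABAergic neurons, were not called lower in astrocyte IP in any of the 3 experiments. Gad1 (chr2:70553072-70602014, plus strand) was higher in IP in each experiment (log2 0.39 ± 0.0427, 0.49 ± 0.0749 and 0.40 ± 0.0743, adjusted p at most 8.8e-05), in 24 of 24 replicates. Gad2 (chr2:22622205-22693874, plus strand) was at 0.19 ± 0.0506, 0.21 ± 0.086 and 0.12 ± 0.0677 and passed in the MPTP and SAPAP3 experiments (adjusted p of 0.00234 and 0.0324) but not in the R6/2 experiment (adjusted p = 0.106). Slc32a1 (chr2:158610767-158615748, plus strand) passed in the SAPAP3 experiment (log2 0.28 ± 0.0988, adjusted p = 0.0164) and not in the MPTP experiment (0.12 ± 0.0571, adjusted p = 0.0562) or the R6/2 experiment (0.06 ± 0.0815, adjusted p = 0.511). The calls of Gad2 and Slc32a1 were not firm. In the SAPAP3 experiment, Gad2 was lost without knockout replicate 1, 3 or 4 or WT replicate 3 or 4 (adjusted p of 0.0565 to 0.137), with RLE or upper-quartile scaling (0.0587 and 0.503) and with DESeq2 (0.0517), and Slc32a1 was lost without knockout replicate 1, 3 or 4 or WT replicate 4 (0.0537 to 0.0723) and with upper-quartile scaling (0.259). With WT libraries alone both were lost there (0.231 for Gad2 and 0.222 for Slc32a1). In the MPTP experiment, Gad2 was lost with upper-quartile scaling (0.377) and with vehicle libraries alone (0.36), and Slc32a1 passed without vehicle replicate 1 (0.18, adjusted p = 0.00131), with RLE scaling (adjusted p = 0.0474) and with DESeq2 (adjusted p = 0.0411) but lay below 0 with upper-quartile scaling (-0.02) and with vehicle libraries alone (-0.06). In the R6/2 experiment, Gad2 passed with the animal as a block (adjusted p = 0.0341) and with cargo libraries alone (adjusted p = 0.0384), and Slc32a1 lay at -0.06 with upper-quartile scaling. The markers of medium spiny neurons went the other way, all 9 lower in IP. Of 10 striatal interneuron markers, 8, 7 and 8 were higher in IP and 0, 1 and 0 lower, with medians of 1.68, 1.13 and 1.81 on the log2 scale. Of all genes, 40.7%, 40.3% and 39.3% were higher in IP and 42.9%, 40% and 41.1% lower. Chat was at 2.23, 2.50 and 2.49, Slc5a7 at 2.18, 2.20 and 2.18 and Nos1 at 2.99, 1.91 and 2.44, while Pvalb was at -0.08, -0.47 and 0.18 and was the marker called lower in the SAPAP3 experiment (adjusted p = 0.0134). The summed level of the 10 was 965 to 1255 normalized FPKM in IP against 276 to 328 in input in the MPTP experiment, 613 to 734.5 against 241 to 368 with SAPAP3 mice, and 482 to 615 against 122 to 149 with R6/2 mice. The part of interneuron RNA in the Gad1, Gad2 and Slc32a1 values of IP was not tested.

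In hM4Di IP none of the synthesis and loading genes passed, and the fold change of each was below 0. Gad1 was at 200, 176, 209 and 202 normalized FPKM in hM4Di IP and at 221, 216, 223 and 285 in cargo IP (log2 -0.25 ± 0.0964, adjusted p = 0.113), groups that did not overlap. Gad2 was at 76.2 to 85.7 in hM4Di IP and 84.2 to 114 in cargo IP (-0.21 ± 0.092, adjusted p = 0.158), and Slc32a1 at 64.4 to 73.8 and 70.0 to 103 (-0.23 ± 0.112, adjusted p = 0.188). Cargo replicate 4 was the highest library of its group for all 3 genes, in IP and in input. In the same comparison 7 of 9 medium spiny neuron markers were called lower (median log2 -0.51), 2 of 6 pan-neuronal markers were called lower with all 6 values below 0 (median -0.21), and 0 of 10 interneuron markers were called, with 3 values below 0 (median 0.08) and sums of 487 to 615 normalized FPKM in hM4Di IP and 482 to 583 in cargo IP. The part of neuronal RNA in these values was not tested.

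Slc32a1 had the smallest p of the interaction in the MPTP experiment among the genes examined here (rank 45 of 15862 genes tested). It was at 77.8, 72.4, 77.8 and 75.3 normalized FPKM in MPTP IP and at 57.6, 70.7, 68.3 and 69.8 in vehicle IP, groups that did not overlap (log2 0.20 ± 0.0674, adjusted p = 0.317). In input the sign was opposite and the groups met at 63.6, with 56.2, 61.8, 63.6 and 56.2 normalized FPKM in MPTP mice and 70.2, 66.2, 63.6 and 64.9 in vehicle mice (-0.14 ± 0.0498, adjusted p = 0.535). The interaction was 0.33 ± 0.0844 and did not pass with edgeR (adjusted p = 0.368). It passed with DESeq2 (0.33, adjusted p = 0.049), which called 54 genes over all where edgeR called 0. Without vehicle replicate 1, the lowest vehicle IP library, it was 0.24 with edgeR (adjusted p = 0.891).

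The sign for Gabbr2 between the fractions depended on the experiment, and Gabbr1 lay above 0 in each. Gabbr1 was higher in IP in the MPTP experiment (log2 0.25 ± 0.0398, adjusted p = 1.1e-05) and in the SAPAP3 experiment (0.20 ± 0.0409, adjusted p = 0.000271), and did not pass in the R6/2 experiment (0.13 ± 0.0663, adjusted p = 0.0896), where hM4Di and cargo mice were averaged. The SAPAP3 call was lost with upper-quartile scaling (0.05, adjusted p = 0.243) and with WT libraries alone (0.17, adjusted p = 0.0629). In the R6/2 experiment Gabbr1 passed with cargo libraries alone (0.37, adjusted p = 8.6e-05) and without hM4Di replicate 3 or 4 (adjusted p of 0.0484 and 0.0392). Gabbr2 was higher in IP in the MPTP and R6/2 experiments (0.69 ± 0.0572 and 0.41 ± 0.0566, adjusted p at most 3.7e-06), in 16 of 16 replicates. In the SAPAP3 experiment it was lower (-0.40 ± 0.149, adjusted p = 0.0192), and in WT replicate 1 alone IP was above input. That call was lost with WT libraries alone (-0.36, adjusted p = 0.227) and without knockout replicate 3 (-0.34, adjusted p = 0.0501), and without WT replicate 1 it was -0.49 (adjusted p = 5.7e-06).

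Other genes of the GABA system were taken from lists chosen with earlier results of these data known. In hM4Di IP against cargo IP, 3 of the 15 tested GABA-A receptor subunit genes were lower and 0 higher, with a median log2 fold change of -0.18 against 0.01 over all genes, beside 5.63% of all genes lower and 9.06% higher. They were Gabrd (log2 -0.60 ± 0.139, adjusted p = 0.0242), whose product is typical of extrasynaptic receptors, Gabra4 (-0.38 ± 0.102, adjusted p = 0.0392) and Gabrg3 (-0.27 ± 0.0734, adjusted p = 0.0392). Of 10 GABA-B receptor partners and channels 2 were lower and 0 higher (median -0.23), beside the same shares of all genes: Kctd16, which encodes an auxiliary subunit of the receptor (-0.49 ± 0.126, adjusted p = 0.035), and Kcnj3, which encodes a G protein-gated potassium channel subunit (-0.24 ± 0.0666, adjusted p = 0.0429). These genes stood beside the fall in medium spiny neuron markers given above.

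**Figure D5:**
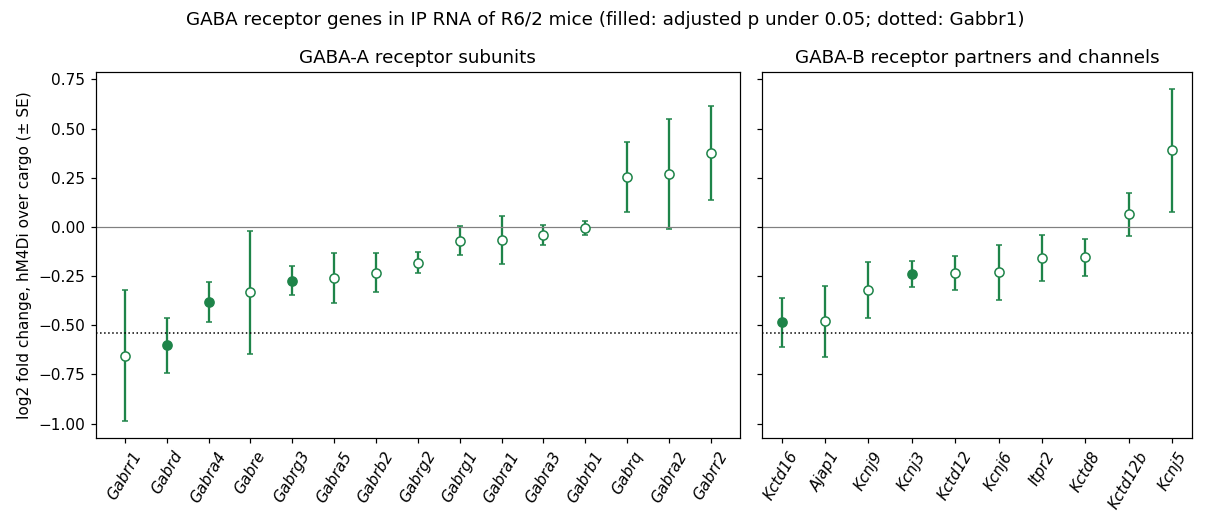
Log2 fold change ± SE, hM4Di over control cargo in IP, of the tested GABA-A receptor subunit genes (left) and of GABA-B receptor partners and channels (right), ordered by fold change; filled points have an adjusted p under 0.05 and the dotted line is Gabbr1 at -0.54. The filled points, 3 on the left and 2 on the right, all lie below 0.

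In the same comparison, in which 14.7% of all genes were called in either direction, 2 of 7 tested genes of the putrescine and aldehyde routes and 1 of 8 genes of glutamate supply were called. Of the 7 genes of the putrescine and aldehyde routes, Sat1, which acetylates polyamines, was higher (log2 0.32 ± 0.0881, adjusted p = 0.0406) and Aldh1a1, an aldehyde dehydrogenase, was lower (-0.71 ± 0.11, adjusted p = 0.00659). Of 8 genes of glutamate supply, Glul, the glutamine synthetase of astrocytes, was lower (-0.39 ± 0.0732, adjusted p = 0.0128). In hM4Di input 0 of the 9 genes and 0 genes of these 4 lists were called by edgeR, beside 0.0198% of all genes. Of the 9, 1 had an unadjusted p under 0.05, beside 7.67% of all genes, and DESeq2 and limma-voom called 0. With MPTP and in SAPAP3 knockouts, none of these lists held a called gene in either fraction.

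In IP against input, metabolic genes of these lists lay chiefly on the side of IP, and receptor genes, like all genes, on both sides. Of all genes tested, 40.7%, 40.3% and 39.3% were higher in IP in the MPTP, SAPAP3 and R6/2 experiments. The shares that were lower in IP were 42.9%, 40% and 41.1%. All 7 or 8 tested genes of the putrescine and aldehyde routes were higher in IP in each experiment, among them Maob, which encodes monoamine oxidase B (log2 2.31, 2.38 and 2.26), and Aldh1a1 (2.24, 2.43 and 2.13). Glul was higher by 1.98, 1.84 and 2.17. Of the GABA-A subunit genes, 6 were higher and 5 lower in the MPTP experiment, 3 and 8 with SAPAP3 mice, and 6 and 5 with R6/2 mice, with Gabrg1 higher (1.67, 1.69 and 1.69) and Gabra5 lower (-1.24, -1.17 and -1.04). Among the GABA-B partners, Kctd12b was higher (1.33, 1.55 and 1.14) and Kctd12 lower (-0.89, -0.86 and -0.60).

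The control groups of the 3 experiments were compared within each fraction, with R6/2 cargo mice against the mean of vehicle and WT mice, and WT against vehicle mice as a measure of how far 2 groups of healthy mice differ between experiments. Experiment and genotype cannot be told apart here. In IP, 1 of 8 genes passed in cargo mice, beside 50.6% of all genes, and 2 of 8 passed between WT and vehicle mice, beside 22.7%. In input, 2 of 9 passed in cargo mice, beside 59.9% of all genes, and 5 of 9 between WT and vehicle mice, beside 46.3%. The count in cargo IP became 2 without cargo replicate 2 or 3, vehicle replicate 1 or WT replicate 3, and 4 without WT replicate 1, and that in cargo input became 5 without WT replicate 1.

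Aldh5a1 was higher in R6/2 cargo mice in both fractions. In IP it was at 51.1, 53.3, 52.5 and 47.7 normalized FPKM in cargo mice, against 33.3, 33.3, 43.9 and 32.6 in WT mice and 42.1, 34.1, 43.0 and 44.3 in vehicle mice (log2 0.44 ± 0.0889, adjusted p = 0.00114). In input it was at 23.2 to 24.2 in cargo mice, 18.1 to 22.4 in WT mice and 15.1 to 18.4 in vehicle mice (0.34 ± 0.0566, adjusted p = 0.000205). All cargo libraries lay above all healthy libraries in each fraction. Between the healthy groups Aldh5a1 differed by -0.19 ± 0.104 in IP (adjusted p = 0.204, and 0.0152 without WT replicate 3) and by 0.23 ± 0.0662 in input (adjusted p = 0.0111, and 0.0513 without vehicle replicate 2), WT over vehicle.

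Gabbr1 in input was 192 to 201 normalized FPKM in cargo mice, 194 to 220 in WT mice and 224 to 258 in vehicle mice (log2 -0.21 ± 0.0494, adjusted p = 0.00274), and against WT mice alone it did not pass (-0.10, adjusted p = 0.14). WT and vehicle mice themselves differed in Gabbr1 by -0.36 ± 0.0613 in IP (adjusted p = 0.00265) and -0.21 ± 0.0566 in input (adjusted p = 0.00872). Their largest difference among the 9 genes was Gabbr2 in input (1.22 ± 0.216, adjusted p = 0.000569), beside the cortical markers described above. Abat was lower in WT than in vehicle mice in IP (-0.24 ± 0.0645, adjusted p = 0.0198), a call lost without vehicle replicate 1 or 3 or WT replicate 2 or 4 (adjusted p of 0.0502 to 0.0597), and in input (-0.34 ± 0.0669, adjusted p = 0.00107), and Slc6a11 was higher in WT input (0.46 ± 0.0807, adjusted p = 0.00054).

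Likeness was described by Pearson's r of log2 CPM over the 48 libraries, which share fraction, experiment and mouse, and is given with no test. Slc6a11 was most like Nacc2 (r = 0.994), Tril (0.993) and Sash1 (0.992), and Abat was most like Acadm (0.989), Hsd17b4 (0.988) and Hibadh (0.988). Slc6a13 was most like Mrc1 (0.981), Gabbr2 like Dlgap1 (0.979), Aldh5a1 like Usp9x (0.976), Gad1 like Ache (0.906) and Gabbr1 like Gphn (0.89), which encodes the scaffold protein gephyrin. Gad2 was most like Gad1 (0.81), and Slc32a1 had the weakest closest match, Lamb1 (0.784).

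With the 12 group means taken out, so that only differences between replicates of a group remained, the highest r among the 9 genes were within the synthesis and loading genes. Gad1 and Slc32a1 had a residual r of 0.809, Gad2 and Slc32a1 of 0.793, and Gad1 and Gad2 of 0.778. Abat and Aldh5a1 had 0.684, and Slc6a11 and Aldh5a1 had 0.585. The receptor subunits Gabbr1 and Gabbr2 had 0.07, although their products form 1 receptor. Gabbr2 residuals followed Gfra2 (0.936), Dlgap1 (0.929) and Olfm1 (0.927) over libraries that include WT replicate 1, whose Gabbr2 input value stood far from its group. For Gad1, Gad2 and Slc32a1, WT replicate 1 and cargo replicate 4 were the highest libraries of their groups in both fractions. The part of these mice in the residual r of those genes was not tested.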

How the data were processed

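Per the submitters' processing notes, the aligner was STAR, the counter HTSeq and the build mm10. Versions, the annotation and use of strand are not given in the sources used here. Per the labels' protocols, libraries came from a stranded kit that depletes ribosomal RNA. The authors deposited whole read counts per gene symbol and FPKM. As checked, the deposited FPKM scale the counts by a fixed gene length and by library total only. Normalized FPKM here use TMM library sizes over the 48 libraries.

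Counts were tested in R 4.3.3 with edgeR 4.0.16 (filterByExpr by group with a minimum count of 10, TMM, quasi-likelihood F test, Benjamini-Hochberg over all genes tested, threshold 0.05), within the groups compared. IP was compared with input with the condition in the model, and the interaction is the IP effect minus the input effect. SE are those the F statistic implies. Alternatives used limma 3.58.1 and DESeq2 1.42.0. The fits were tested on simulated data. P-values measure the spread between the libraries compared, and counting error is small beside it except for Slc6a13.

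The genes and lists were chosen with earlier results of these data known, and some genes of the lists are not reported here and enter no count or sum. The 9 genes are always named, and each list names at most 4 genes by smallest p in a comparison. Pvalb is named besides, as the interneuron marker called lower in the SAPAP3 experiment. IP and input of a replicate come from 1 mouse by the titles (except MPTP replicate 2). Their residuals correlated at 0.112 to 0.45 in the MPTP, 0.328 to 0.561 in the SAPAP3 and 0.439 to 0.681 in the R6/2 experiment. The main fits of IP against input and of the interaction held no term for the animal. Their p-values thus treat the 2 libraries of a mouse as independent. The animal served as a block only in alternative fits, and values from it are marked as such. In the SAPAP3 experiment the block called 7 of the 9 genes higher in IP and 2 lower, as the main fit did. In the MPTP experiment a block would join 2 animals as 1 and no blocked value is given. No 2 libraries of a group agreed within sampling noise (chi-square per degree of freedom of 3.88 to 87.2 over 72 pairs).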

Additional observations from a re-analysis of the deposited data

Results flagged for a closer look

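The interaction of Gabbr1 in the R6/2 experiment differed between the fractions (-0.48 on the log2 scale, IP effect minus input effect), as described above.

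In 10 of 108 combinations of gene and group, 1 library lay far from the other 3 (Dixon's ratio of gap to range past its 95% critical value), where chance alone flags about 1 in 20, or 5.4. Gabbr2 in WT input replicate 1 was at 23.7 normalized FPKM, against 59.6 to 61.6 in the others, and this mouse also stood apart in the cortical and medium spiny neuron markers. Slc6a11 in knockout input replicate 2 was at 33.0, against 21.9 to 23.0.

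For GABA synthesis and loading, cargo replicate 4 was high for Gad1 in IP (285, against 216 to 223), for Gad2 in input (91.8, against 75.3 to 75.9) and for Slc32a1 in input (90.6, against 65.9 to 68.9). Gad1 was also high in vehicle IP replicate 2 (268, against 227 to 234), and Slc32a1 was low in knockout input replicate 3 (47.6, against 52.7 to 53.5).

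Aldh5a1 was high in WT IP replicate 3 (43.9, against 32.6 to 33.3), whose title may join 2 mice. Slc6a13 was high in WT IP replicate 2 (0.143, against 0.0644 to 0.077) and in MPTP IP replicate 3 (0.0941, against 0.0538 to 0.0606), values that rest on 12 and 11 reads.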

How the results depend on the processing

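Of 298 recomputed counts of called genes, 22 moved by more than 1.5 times. In hM4Di IP against cargo IP the count was 1 and became 3 with DESeq2 (Gabbr2 and Gad1 joined), 3 with all 16 libraries in 1 fit (Gabbr2 and Aldh5a1 joined), 2 at a threshold of 0.1, and 1 to 2 without each replicate in turn. Gabbr1 passed in all 19 settings there, from -0.59 to -0.50 on the log2 scale, and in all 12 of the interaction, from -0.51 to -0.46. The interaction in the R6/2 experiment called 1 gene and 6 with the animal as a replicate block. In the MPTP experiment it called 0 and 1 with DESeq2. Cargo against healthy IP called 1 gene, and 2 with the replicate block, with vehicle alone or with WT alone as control, and 1 to 4 without each replicate (4 without WT replicate 1). In input it called 2, and 4 with vehicle alone, 5 with WT alone, and 2 to 5 without each replicate (5 without WT replicate 1). WT against vehicle IP called 2, and 1 to 3 without each replicate, where Abat was lost 4 times. By adjusted p alone, IP against input called 9 genes in the SAPAP3 experiment, and 5 with control libraries only and 6 to 9 without each replicate; Gad2, Slc32a1, Gabbr1 and Gabbr2 were the genes whose calls changed. The cause of these shifts was not tested.

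Slc6a11 in cargo against healthy input was -0.02 and reversed to 0.21 (adjusted p = 0.0384) with vehicle alone as control, and was -0.25 (adjusted p = 0.0187) with WT alone. Over 2-fold in IP, Abat lost its place in the MPTP experiment with upper-quartile scaling (0.95), and Aldh5a1 in the R6/2 experiment with that scaling (0.90) and without cargo replicate 2 or 3 (0.99 and 1.00). That scaling moved the median of all genes by -0.14, -0.14 and -0.12 in the MPTP, SAPAP3 and R6/2 experiments.

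Replicate numbers do not pair perturbed with control mice (residual r of -0.433 to 0.454). The block on them changed no call of the 9 genes in the 6 perturbation comparisons. Over all genes it moved the count from 4 to 2 in SAPAP3 IP, from 0 to 1 in MPTP input and from 3 to 6 in hM4Di input. Counts over all genes depended on the setting: MPTP IP called 0, and 296 with DESeq2 and 65 without vehicle replicate 2; hM4Di IP called 2227, and 3467 with DESeq2, 3636 with all 16 libraries, 3728 at a threshold of 0.1 and 892 without cargo replicate 1. Slc6a13 in IP is limited by depth.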
